A study of Mus musculus with 12 samples.

Results

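Matrix metalloproteinases (MMPs) are zinc-dependent enzymes that cut the proteins of the extracellular matrix, and tissue inhibitors of metalloproteinases (TIMPs) are small secreted proteins that block them. The 10 genes described here are Mmp2, Mmp3, Mmp9, Mmp11, Mmp13, Mmp14, Mmp19, Timp1, Timp2 and Timp3, out of 52636 genes in the count files. They were chosen by name as a family after Mmp2 had been seen to rise with the drug combination over both vectors. The values that chose them are therefore those of Mmp2 under combo against vehicle, which are given as a description with no test. All 10 genes were detected and all 10 passed the filter on low counts.

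Bulk RNA-seq was made from 12 mouse mammary tumors, 3 in each of 4 groups. The tumors were of the line 2153L GEM, which the labels class as TNBC, and had been transplanted into female Balbc mice at the mammary fat pad; the age of the mice is not given. The first group carried p53ERTAM, a p53 that tamoxifen can switch on, and received combo; the second carried p53ERTAM and received vehicle; the third carried an empty vector (EV) and received combo; the fourth carried EV and received vehicle. Combo was ORIN1001, which blocks the RNase activity of the stress sensor IRE1α, at 150 mg/kg daily with docetaxel, a microtubule drug, at 20 mg/kg weekly, for 8 days. All 12 tumors came from 1 tumor line, and the labels say neither which mice received tamoxifen nor whether each vector stands for 1 clone or a pool. Separate titles are the sole sign that the 3 libraries of a group are separate tumors, so p-values measure the spread between these libraries.

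MMPs are made as inactive precursors whose propeptide other proteases remove. Mmp2 is activated at the cell surface by the membrane-anchored enzyme Mmp14 with Timp2 as the adaptor, so Timp2 takes part in activating Mmp2 as well as inhibiting it. In mammary tumors much of the Mmp2, Mmp3, Mmp11 and Mmp13 is known to come from stromal fibroblasts, and much of the Mmp9 from infiltrating leukocytes. RNA levels say nothing of whether the enzyme was activated.

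Promoter windows are shown because some MMP genes share short elements near the start site through which AP-1 and ETS factors are known to act. Mmp3 and Mmp13, which lie on the same chromosome, were both higher with p53ERTAM than with EV under combo. So were Mmp14, Mmp19, Timp2 and Timp3. No window was at hand for Mmp2, Mmp9 and Mmp19. Windows of 300 bases (250 before the start and 50 from it, the start being position 251) were taken from RefSeq on GRCm38.p6 for 7 of the 10 genes, matched by symbol. Those of Mmp3 (chr9:7445572-7445871, plus strand), Mmp13 (chr9:7272264-7272563, plus strand), Mmp14 (chr14:54431348-54431647, plus strand) and Timp2 (chr11:118355362-118355661, minus strand) are printed 5′ to 3′ on the strand of the gene, with motif matches in capitals.
Mmp3: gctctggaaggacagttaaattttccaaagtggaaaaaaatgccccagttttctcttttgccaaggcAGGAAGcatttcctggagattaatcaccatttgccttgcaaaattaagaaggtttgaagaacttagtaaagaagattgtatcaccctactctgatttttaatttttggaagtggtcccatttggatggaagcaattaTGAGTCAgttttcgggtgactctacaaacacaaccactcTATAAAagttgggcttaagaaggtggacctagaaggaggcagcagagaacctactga
Mmp13: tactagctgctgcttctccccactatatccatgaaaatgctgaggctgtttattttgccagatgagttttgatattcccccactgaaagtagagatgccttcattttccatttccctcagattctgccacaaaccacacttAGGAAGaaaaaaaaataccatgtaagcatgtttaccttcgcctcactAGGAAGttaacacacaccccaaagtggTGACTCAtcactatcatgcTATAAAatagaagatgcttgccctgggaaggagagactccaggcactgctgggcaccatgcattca
Mmp14: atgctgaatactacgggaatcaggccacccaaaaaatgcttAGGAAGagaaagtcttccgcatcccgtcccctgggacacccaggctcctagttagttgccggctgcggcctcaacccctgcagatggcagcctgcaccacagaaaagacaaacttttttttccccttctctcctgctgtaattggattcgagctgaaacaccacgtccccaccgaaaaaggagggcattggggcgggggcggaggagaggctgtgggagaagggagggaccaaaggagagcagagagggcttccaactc
Timp2: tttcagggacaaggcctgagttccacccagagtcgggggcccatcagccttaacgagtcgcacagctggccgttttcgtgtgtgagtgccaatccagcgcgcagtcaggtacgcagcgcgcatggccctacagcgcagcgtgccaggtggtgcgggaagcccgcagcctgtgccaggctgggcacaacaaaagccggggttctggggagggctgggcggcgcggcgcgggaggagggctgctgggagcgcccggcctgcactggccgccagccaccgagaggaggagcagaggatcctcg
The motifs searched were the AP-1 element TGACTCA on both strands, the ETS-type PEA3 element AGGAAG on both strands, and a TATA box, TATAAA, on the strand of the gene; no matches overlapped. The Mmp3 window holds TGAGTCA, the AP-1 element read on the minus strand, at positions 205 to 211, and the Mmp13 window holds TGACTCA at positions 216 to 222. Both also hold a TATA box, which ends before the start site, and Mmp3 has 1 PEA3 match and Mmp13 has 2. The other 5 windows hold neither an AP-1 match nor a TATA box, while PEA3 matches number 1 in Mmp14, 3 in Timp1, 1 in Timp3 and 0 in Timp2 and Mmp11. Of 32851 promoter windows of this length, 5.2% hold the AP-1 element, 35.4% PEA3 and 8.32% the TATA box. A match is a description of these letters and not a site of binding, and its part in the levels was not tested. The Mmp3 and Mmp13 windows have 40% and 43.7% G and C, against 55 to 68.7% in the other 5. The start used by RefSeq coincides with the gene start in the count files for Mmp3, Mmp13 and Timp1, but differs by 14 bases for Mmp14, 40 for Timp3, 329 for Timp2 and 3994 for Mmp11.

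Library totals were 21914913 to 24424964 counts in p53ERTAM combo tumors, 13484873 to 19461986 in p53ERTAM vehicle, 14433361 to 17601245 in EV combo and 20431888 to 23188928 in EV vehicle. The 3 EV combo libraries stood apart in composition: the noncoding gene Gm26917 took 10.7 to 11.1% of their counts, against 0.133 to 1.1% in the other 9, and protein-coding genes took 80.88 to 81.67%, against 86.65 to 95.79%. Any comparison with EV combo carries this difference, and its part in the results was not tested. As a check of the vector labels over both treatments, Cdkn1a, a p53 target, was 2.16 higher in p53ERTAM tumors on the log2 scale (adjusted p = 2.19e-05), Esr1, part of which the fusion carries, was 1.80 higher (3.83e-06) and Trp53 was 0.28 higher (0.0336). All markers of breast epithelium were detected, their summed level being 2283 to 2809 CPM (counts scaled to a common library total) in p53ERTAM combo, 1879 to 2343 in p53ERTAM vehicle, 2110 to 2608 in EV combo and 3518 to 4390 in EV vehicle.

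Per length, in TPM (transcript abundance corrected for exon length), Mmp14 was the most abundant member, with a median level of 127 TPM over the 12 libraries and a range of 78.2 to 191. The inhibitors came next, Timp2 at a median of 56.9 TPM (24.8 to 136), Timp3 at 53 TPM (11.6 to 105) and Timp1 at 48.3 TPM (21.9 to 107). Their ranges overlapped almost wholly, so the order among the 3 inhibitors is not distinct. Mmp2 followed at 21.8 TPM (6.90 to 43.5) and Mmp3 at 13.1 TPM (1.08 to 67.4). The lowest 4, Mmp11 at 9.84, Mmp19 at 7.94, Mmp13 at 5.88 and Mmp9 at 5.04 TPM, also overlapped one another. Between libraries, the ratio of highest to lowest CPM ran from 1.94 for Mmp14 and 1.96 for Mmp11 to 20.8 for Mmp13 and 58.1 for Mmp3. Levels below are in CPM scaled by TMM factors, which compares libraries and not genes.

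**Figure D1:**
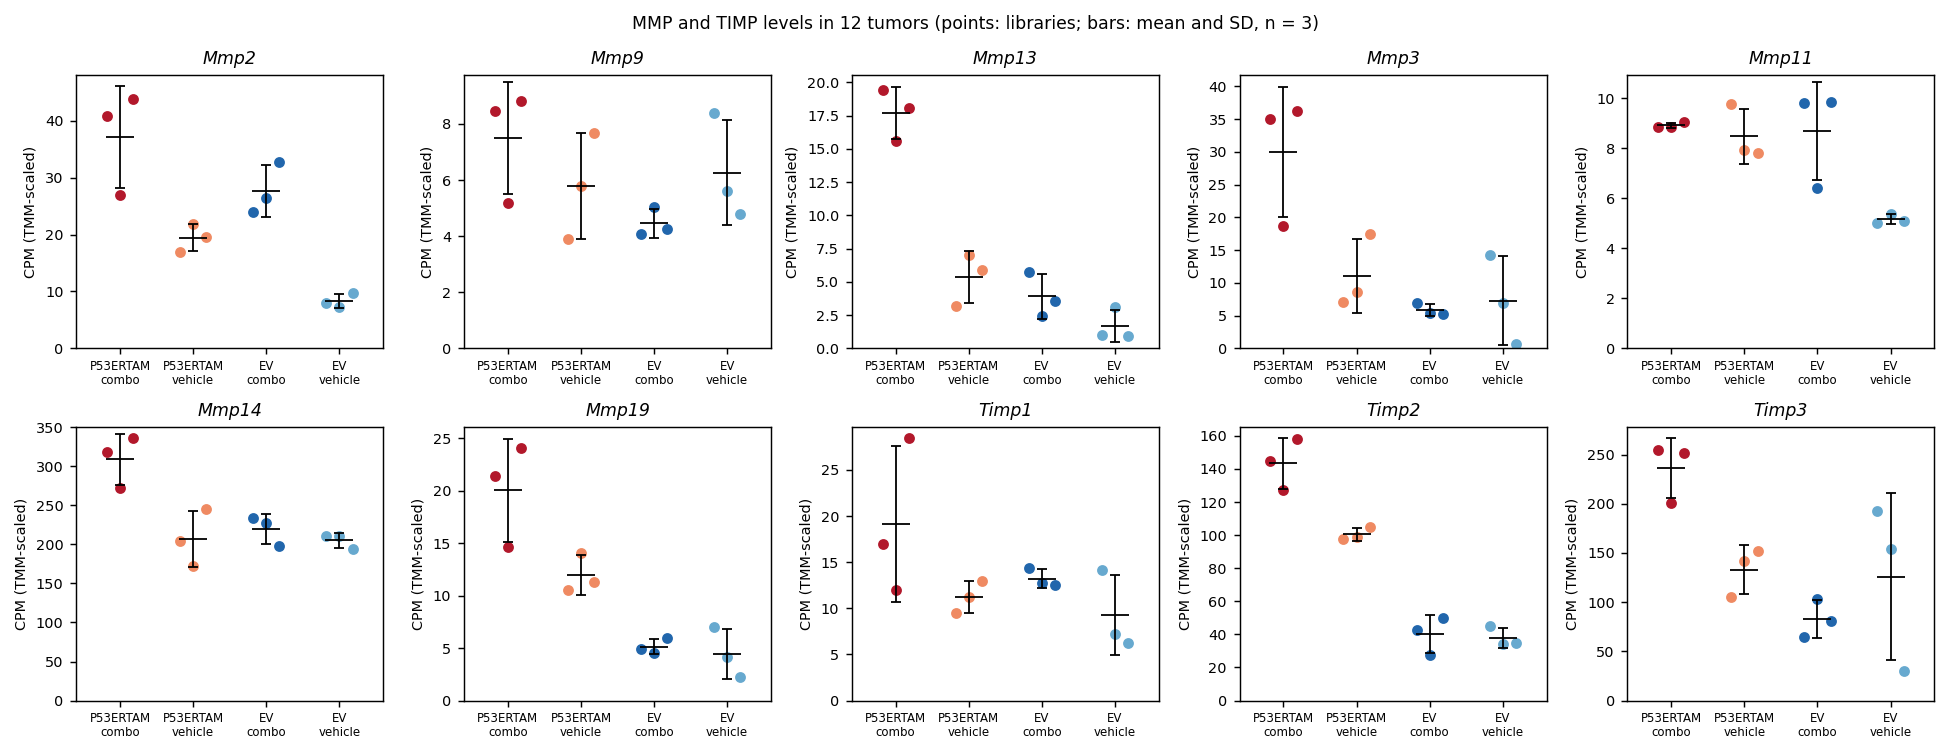
Levels of the 10 genes in CPM scaled by TMM, on linear axes from 0, for the 4 groups; points are libraries and bars the mean and SD (n = 3). Mmp2 is lowest in all 3 EV vehicle tumors, Timp2 and Mmp19 are higher in every p53ERTAM tumor than in every EV tumor, and EV vehicle replicate 3 is the lowest tumor for Mmp3 and Timp3.

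Mmp2 (gelatinase A, an enzyme that cuts denatured collagen and the collagen of basement membranes) was on chromosome 8 at 92827291 to 92853420 on the plus strand, in 14 exon blocks. It stood at 40.8, 26.9 and 43.8 CPM in p53ERTAM combo tumors and 17, 21.8 and 19.6 CPM in p53ERTAM vehicle tumors. The EV tumors had 23.9, 26.4 and 32.7 CPM under combo and 7.93, 7.32 and 9.68 CPM under vehicle. All 3 combo tumors of each vector lay above the 3 vehicle tumors of the same vector. As the values that chose the family, the log2 difference of combo against vehicle was 0.94 (SE 0.195, 1.91-fold) in p53ERTAM tumors, 1.74 (SE 0.203, 3.33-fold) in EV tumors and 1.34 (SE 0.140, 2.53-fold) over both vectors, with no test.

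Between vectors, which the choice did not use, Mmp2 was higher in p53ERTAM than in EV tumors under vehicle, with a log2 difference of 1.23 (SE 0.202, 2.34-fold, adjusted p = 0.000593 by edgeR). Under combo the difference was 0.43 (SE 0.192, adjusted p = 0.0876), which did not pass the threshold of 0.05, and p53ERTAM combo replicate 2 fell within the EV combo range. Without that library the difference was 0.61 (adjusted p = 0.0206), and by voom 0.48 (0.0322; range 0.0206 to 0.319). Over both treatments it was 0.83 (SE 0.139, adjusted p = 0.000373). The combo effect in p53ERTAM minus that in EV tumors was -0.80 (SE 0.277, adjusted p = 0.0379), the sole interaction called among the 10. It is the difference between the combo effects by which the family was chosen, so its test is not separate from that choice. In this interaction 18.8% of 17970 genes were called higher and 17.2% lower, so 1 of 10 is not above the background. The call was lost when any 1 of 7 libraries was left out, namely EV vehicle replicates 1 (adjusted p = 0.0630) and 2 (0.0748), EV combo replicates 2 (0.0526) and 3 (0.0934), p53ERTAM vehicle replicates 2 (0.0849) and 3 (0.0568) and p53ERTAM combo replicate 2 (0.0703), and with voom (0.122). Over the 18 alternatives its value lay between -0.99 and -0.64, with adjusted p from 0.0175 to 0.122.

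Mmp9 (gelatinase B, on chromosome 2 at 164940780 to 164955850) passed the test in none of the contrasts of the 4-group fit. Its levels were 8.45, 5.19 and 8.82 CPM in p53ERTAM combo tumors, 3.91, 5.79 and 7.69 in p53ERTAM vehicle, 4.06, 5.05 and 4.27 in EV combo and 8.38, 5.61 and 4.79 in EV vehicle. The groups overlapped in all but 1 comparison, p53ERTAM combo against EV combo, where every p53ERTAM tumor was higher. That log2 difference was 0.75 (SE 0.310) and did not pass, at adjusted p = 0.0649, but it passed without p53ERTAM combo replicate 2 (0.0353), by voom (0.0335) and in a fit of the 2 groups alone (0.0367; range 0.0335 to 0.196). The interaction was 0.86 (adjusted p = 0.139), which passed by voom (0.0474; range 0.0474 to 0.320). The combo differences were 0.37 (adjusted p = 0.487) in p53ERTAM and -0.49 (0.229) in EV tumors.

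Mmp13 (collagenase-3, which cuts fibrillar collagen, chr9:7272514-7283331) was higher in p53ERTAM tumors and was the one member of the 9 tested that passed with combo in both vectors. It had 19.4, 15.6 and 18.1 CPM in p53ERTAM combo tumors and 3.17, 7.04 and 5.88 CPM in p53ERTAM vehicle tumors. In EV tumors it had 5.77, 2.45 and 3.53 CPM under combo and 0.986, 3.07 and 0.937 CPM under vehicle. The p53ERTAM combo tumors stood above all 9 others, while the EV combo and EV vehicle tumors overlapped.

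With combo, Mmp13 was higher in p53ERTAM tumors, with a log2 difference of 1.73 (SE 0.429, 3.32-fold, adjusted p = 0.0339 by edgeR), and in EV tumors, with a difference of 1.22 (SE 0.459, 2.33-fold, adjusted p = 0.0492). In p53ERTAM tumors the test no longer passed without vehicle replicate 1 (adjusted p = 0.124) or 2 (0.0810) or combo replicate 1 (0.125), 2 (0.0624) or 3 (0.125), over a range of 0.000714 to 0.125 for all alternatives. The call in EV tumors was lost in 13 of 19 alternatives (0.00391 to 0.208). Of these, 9 left out 1 library: EV vehicle replicate 1 (0.136) or 3 (0.134), EV combo replicate 1 (0.208) or 3 (0.0745), replicate 2 (0.0529) or 3 (0.0617) of p53ERTAM vehicle, or p53ERTAM combo replicate 1 (0.0619), 2 (0.0597) or 3 (0.0616). With replicate numbers as a block the adjusted p in EV tumors was 0.0587.

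Between vectors, Mmp13 was higher in p53ERTAM tumors by 2.17 under combo (SE 0.438, 4.51-fold, edgeR adjusted p = 0.00163) and by 1.66 under vehicle (SE 0.456, 3.16-fold, adjusted p = 0.0123). The difference under combo passed in all 19 alternatives. Under vehicle it no longer passed without replicate 2 of p53ERTAM vehicle (adjusted p = 0.0548) and with voom (0.0778), over a range of 0.000798 to 0.0778. The combo effects in the vectors differed by 0.51 (SE 0.624, adjusted p = 0.549), which did not pass.

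Mmp3 (stromelysin-1, a broad matrix protease that also activates other MMP precursors, chr9:7445822-7455975) had 35.0, 18.6 and 36.3 CPM in p53ERTAM combo tumors, 7.03, 8.58 and 17.5 in p53ERTAM vehicle, 6.91, 5.41 and 5.24 in EV combo and 14.2, 6.92 and 0.624 in EV vehicle. Every p53ERTAM combo tumor lay above every other tumor, and EV vehicle replicate 3 was the lowest of all 12. Under combo, Mmp3 was 2.36 higher in p53ERTAM than in EV tumors (SE 0.710, 5.12-fold, edgeR adjusted p = 0.0190). It no longer passed without EV combo replicate 2 (adjusted p = 0.0521) or 3 (0.0563) and without the filter on low counts (0.0846), over a range of 0.000137 to 0.0846. With combo in p53ERTAM tumors the difference was 1.44 (SE 0.679, adjusted p = 0.215), and in EV tumors -0.31 (SE 0.702, adjusted p = 0.756, from -0.81 to 0.63 over the alternatives), neither of which passed. In p53ERTAM tumors it passed by voom (1.78, adjusted p = 0.0180) and in a fit of the 2 groups alone (0.0323; range 0.0180 to 0.482). Without EV vehicle replicate 3 the p53ERTAM difference had an adjusted p of 0.0299 and the interaction was 2.25 (0.00878), against 1.75 (0.180) with it.

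Mmp11 (stromelysin-3, known from tumor stroma, on chromosome 10, minus strand, 75923222 to 75936496) had 8.85, 8.87 and 9.05 CPM in p53ERTAM combo tumors and 9.76, 7.92 and 7.80 in p53ERTAM vehicle tumors. It had 9.83, 6.42 and 9.85 CPM in EV combo tumors and 5.03, 5.39 and 5.10 CPM in EV vehicle tumors, the 3 lowest of the 12. With combo in EV tumors it was higher by 0.75 (SE 0.209, 1.68-fold, edgeR adjusted p = 0.0122), a call lost without EV combo replicate 1 (adjusted p = 0.0509; range over alternatives 0.000633 to 0.0509). Under vehicle it was 0.72 higher in p53ERTAM tumors (SE 0.209, adjusted p = 0.0164), lost without p53ERTAM vehicle replicate 1 (0.0574), without the filter (0.0530) and in a fit of these groups alone (0.0620; range 0.00192 to 0.0620). With combo in p53ERTAM tumors the difference was 0.07 (adjusted p = 0.872), and the interaction of -0.68 did not pass (adjusted p = 0.0843). It passed without EV combo replicate 2 (0.0299), by DESeq2 (0.0320) and among protein-coding genes (0.0351; range 0.0299 to 0.240). Mmp11 shares 155 exon bases with Chchd10 on the opposite strand, which averaged 39.4 ± 2.05, 30.6 ± 4.01, 22.8 ± 1.09 and 57.5 ± 17.7 CPM (SD, n = 3) in p53ERTAM combo, p53ERTAM vehicle, EV combo and EV vehicle tumors. The strand setting of the counting is not given in the sources used here, and the part of shared reads was not tested.

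Mmp14 (MT1-MMP, the membrane-anchored collagenase that activates Mmp2, on chromosome 14 at 54431612 to 54445364) overlapped between the groups apart from p53ERTAM combo. It had 319, 272 and 336 CPM in p53ERTAM combo tumors, 204, 173 and 245 in p53ERTAM vehicle, 234, 227 and 198 in EV combo and 211, 211 and 194 in EV vehicle. Each p53ERTAM combo tumor exceeded the other 9. With combo in p53ERTAM tumors Mmp14 was higher by 0.58 (SE 0.128, 1.49-fold, edgeR adjusted p = 0.0243). It no longer passed without replicate 1 (adjusted p = 0.0838) or 2 (0.0829) of p53ERTAM vehicle or combo replicate 1 (0.0969) or 3 (0.116), over a range of 0.00171 to 0.116. Against EV combo tumors it was 0.49 higher (SE 0.128, adjusted p = 0.00781), a call that passed in all 19 alternatives. In EV tumors the combo difference was 0.10 (SE 0.128, adjusted p = 0.573), and the interaction of 0.48 (SE 0.181) had an adjusted p of 0.0543, which passed without p53ERTAM vehicle replicate 3 (0.0118) or p53ERTAM combo replicate 2 (0.0465) and with voom (0.0230; range 0.0118 to 0.186).

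Mmp19, an enzyme of basement membrane components (on chromosome 10 at 128790910 to 128800824), was higher in p53ERTAM tumors under either treatment. It had 21.4, 14.6 and 24.1 CPM in p53ERTAM combo tumors, 10.5, 14.1 and 11.3 in p53ERTAM vehicle, 4.88, 4.55 and 5.92 in EV combo and 7, 4.12 and 2.24 in EV vehicle. No EV tumor reached the lowest p53ERTAM tumor. The difference was 1.97 under combo (SE 0.332, 3.91-fold, edgeR adjusted p = 0.000459) and 1.42 under vehicle (SE 0.330, 2.68-fold, adjusted p = 0.00480), and both passed in every alternative run. Combo differences of 0.75 in p53ERTAM tumors (adjusted p = 0.163) and 0.20 in EV tumors (0.662) did not pass. In p53ERTAM tumors the difference passed by voom (0.0156) and in a fit of the 2 groups alone (0.0419; range 0.0156 to 0.420). Mmp19 shares 789 exon bases with Tmem198b on the opposite strand, which holds more counts (4781 against 2606) but averaged 19.8 ± 0.550 CPM in p53ERTAM combo, 23.7 ± 3.17 in p53ERTAM vehicle, 18.4 ± 2.87 in EV combo and 20.0 ± 1.88 in EV vehicle (SD, n = 3).

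Among the inhibitors Timp2, which both blocks MMPs and bridges Mmp14 to the Mmp2 precursor, had the difference between vectors with the smallest p of the 10 genes. On chromosome 11, minus strand, 118301069 to 118355740, it had 145, 127 and 158 CPM in p53ERTAM combo tumors, 97.5, 98.7 and 105 in p53ERTAM vehicle, 42.5, 27.4 and 50.1 in EV combo and 44.8, 34.1 and 34.6 in EV vehicle. All 6 p53ERTAM tumors lay above all 6 EV tumors, and within p53ERTAM each combo tumor lay above each vehicle tumor. The difference between vectors was 1.84 under combo (SE 0.186, 3.58-fold, edgeR adjusted p = 1.3e-05) and 1.41 under vehicle (SE 0.184, 2.66-fold, adjusted p = 0.000155), and passed in every alternative run. With combo, it differed by 0.51 in p53ERTAM tumors (SE 0.179, adjusted p = 0.101) and by 0.08 in EV tumors (SE 0.183, adjusted p = 0.752). The difference in p53ERTAM tumors passed without EV combo replicate 2 (adjusted p = 0.0441), without all 3 EV combo libraries (0.0467), with voom (0.0159) and in a fit of the 2 groups alone (0.0158; range 0.0158 to 0.293).

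Timp3, the inhibitor that stays bound to the matrix (chromosome 10, 86300372 to 86349506), had 255, 201 and 252 CPM in p53ERTAM combo tumors, 105, 142 and 152 in p53ERTAM vehicle, 64.9, 103 and 81.2 in EV combo and 193, 154 and 30.2 in EV vehicle. The 3 p53ERTAM combo tumors were the highest of the 12, and EV vehicle replicate 3 was the lowest while replicates 1 and 2 of that group exceeded all p53ERTAM vehicle tumors. Under combo Timp3 was 1.51 higher in p53ERTAM than in EV tumors (SE 0.475, 2.85-fold, edgeR adjusted p = 0.0232), lost without EV combo replicate 1 (adjusted p = 0.0691) or 3 (0.0595), p53ERTAM combo replicate 1 (0.0531) or 3 (0.0568), or without the filter (0.0978; range 3.79e-05 to 0.0978). The combo difference was 0.83 in p53ERTAM tumors (adjusted p = 0.300), -0.60 in EV tumors (0.331) and the interaction 1.43 (0.111), none of which passed. Without EV vehicle replicate 3 they were 0.84 (0.0134), -1.03 (0.00254) and 1.86 (0.000601). With that library kept, the difference in p53ERTAM tumors also passed by voom (1.01, 0.0361) and in a fit of the 2 groups alone (0.00669; range 0.00669 to 0.578), and the interaction by voom (1.66, 0.0175; range 0.000601 to 0.284). Timp3 shares 1733 exon bases with Syn3 on the opposite strand, but Syn3 had 595 counts in all, against 35963 for Timp3.

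Timp1, the secreted inhibitor often induced in inflamed tissue (chromosome X, 20870166 to 20874735), passed in none of the contrasts of the 4-group fit. It had 17, 12 and 28.5 CPM in p53ERTAM combo tumors, 9.51, 11.2 and 13 in p53ERTAM vehicle, 14.4, 12.7 and 12.5 in EV combo and 14.2, 7.23 and 6.24 in EV vehicle. The groups overlapped in each comparison. The combo difference was 0.77 in p53ERTAM tumors (SE 0.326, adjusted p = 0.163) and 0.52 in EV tumors (SE 0.329, adjusted p = 0.228). Without EV vehicle replicate 1 the EV difference was 0.99 (adjusted p = 0.0243).

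**Figure D2:**
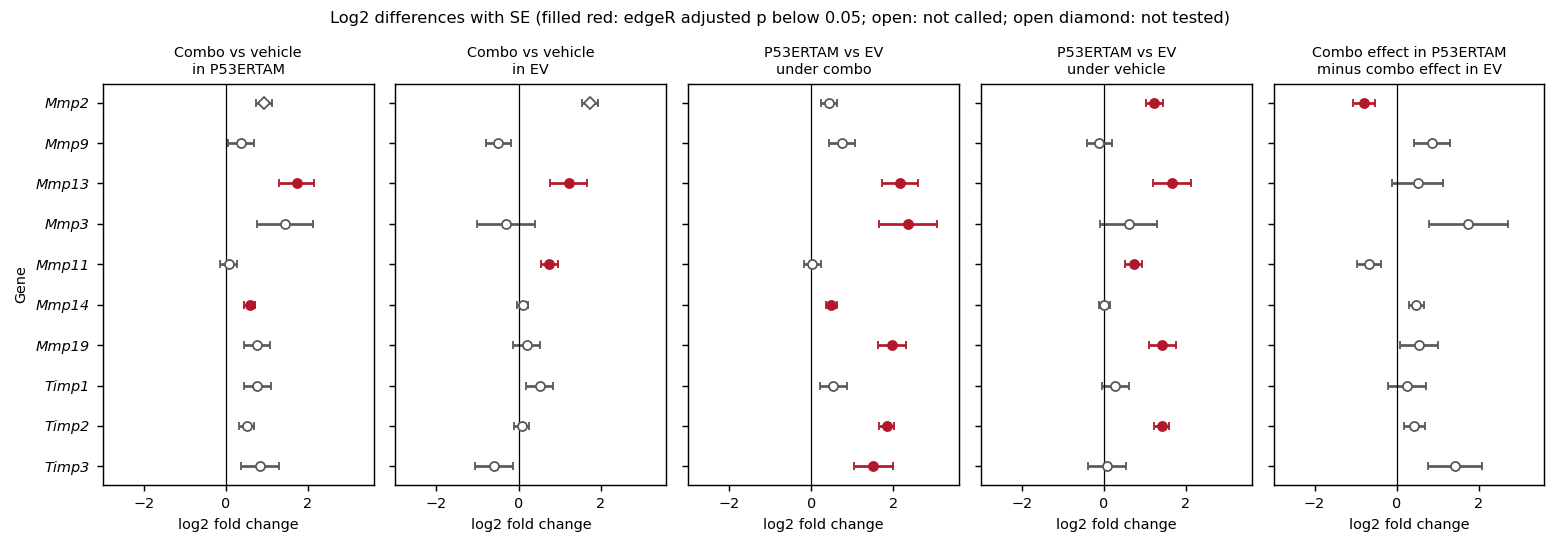
Log2 differences (x axis) of the 10 genes (y axis) with SE in 5 comparisons; filled points passed an edgeR adjusted p of 0.05, open points did not, and the open diamonds for Mmp2 were not tested. Between vectors the filled points all lie to the right of 0, and the sole filled point of the interaction is Mmp2 at -0.80.

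Counted over the family, 2 of 9 tested members (Mmp13 and Mmp14) rose with combo in p53ERTAM tumors and none fell, with Mmp2 left out because it chose the family. Across all 17970 genes 3.30% were called higher and 2.98% lower in that comparison; the median log2 difference was 0.75 over the 9 members and 0.00 over all genes. With combo in EV tumors 2 of 9 (Mmp11 and Mmp13) rose and none fell, against 18.8% higher and 21.1% lower among all genes, with medians of 0.10 over the 9 members and -0.07 over all genes. The share of members called there is near the background. The counts with combo moved with the fit and the libraries. In p53ERTAM tumors 6 of 9 passed by voom, 6 in a fit of the 2 groups alone and 3 in a fit without the EV combo libraries; 4 passed without EV vehicle replicate 3, 1 without p53ERTAM combo replicate 2, and 0 without p53ERTAM combo replicate 1 or 3 or p53ERTAM vehicle replicate 1 or 2. In EV tumors 0 passed without EV combo replicate 1, and 1 passed without EV combo replicate 3, without p53ERTAM vehicle replicate 2 or 3, and without any of the 3 p53ERTAM combo replicates.

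Between vectors, 6 of 10 members (Mmp3, Mmp13, Mmp14, Mmp19, Timp2 and Timp3) stood higher with p53ERTAM than with EV under combo and none was lower. The background was 22.1% higher and 22.0% lower, and the median log2 difference was 1.13 over the members against 0.06 over all genes. Under vehicle 5 of 10 (Mmp2, Mmp11, Mmp13, Mmp19 and Timp2) were higher and none lower, against 17.9% and 19.8%, with medians of 0.66 and 0.01. Over both treatments 6 of 10 (Mmp2, Mmp3, Mmp13, Mmp14, Mmp19 and Timp2) were higher and none lower, against 20.6% and 20.4%. The over-both difference was 1.92 for Mmp13, 1.69 for Mmp19, 1.62 for Timp2 and 0.83 for Mmp2, each of which passed in all 18 alternatives. The calls of Mmp3 (1.48, adjusted p = 0.0307) and Mmp14 (0.25, adjusted p = 0.0394) were lost in 6 and 9 of the 18. For Mmp3 these left out EV combo replicate 2 (0.0562) or 3 (0.0596), p53ERTAM vehicle replicate 3 (0.0743), p53ERTAM combo replicate 1 (0.0529) or 3 (0.0553), or the filter (0.120, the highest). For Mmp14 they left out EV vehicle replicate 1 (0.0506) or 3 (0.0595), EV combo replicate 2 (0.0550) or 3 (0.0901), replicate 1 (0.0513) or 3 (0.0959, the highest) of p53ERTAM vehicle or p53ERTAM combo replicate 1 (0.0721) or 3 (0.0875), or used the replicate block (0.0568). The comparisons under combo, under vehicle and over both share their libraries and are not separate evidence.

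Summed per length, the 7 MMP genes gave 330 ± 50.6 TPM in p53ERTAM combo tumors, 175 ± 39.4 in p53ERTAM vehicle, 199 ± 7.03 in EV combo and 147 ± 19.4 in EV vehicle (SD, n = 3). The 3 TIMP genes gave 295 ± 51.4 TPM in p53ERTAM combo, 167 ± 23.6 in p53ERTAM vehicle, 125 ± 6.58 in EV combo and 111 ± 49.1 in EV vehicle. The ratio of these MMP to TIMP sums was 1.12 ± 0.0678, 1.04 ± 0.0980, 1.59 ± 0.114 and 1.47 ± 0.526 in the same order of groups. Mmp14 made up 54.1 ± 3.69% of the sum of the 7 genes in p53ERTAM combo and 61.5 ± 4.67% in p53ERTAM vehicle. In EV tumors it made up 66.5 ± 3.78% under combo and 75.0 ± 6.75% under vehicle. Mmp15, described below, is not among the 7 genes. It had 113, 98.6 and 284 TPM in EV vehicle tumors, where the 7 genes summed to 164, 152 and 126. In the other groups Mmp15 had 57.2 to 88.8 TPM. The MMP to TIMP ratio and the Mmp14 share were not computed with Mmp15 counted. The ratio of Mmp14 to Timp2 TPM, the pair that handles the Mmp2 precursor, was 1.40 to 1.45 in p53ERTAM combo, 1.16 to 1.54 in p53ERTAM vehicle, 2.62 to 5.50 in EV combo and 3.11 to 4.10 in EV vehicle. The ranges of the vectors did not overlap under either treatment, and those of combo and vehicle overlapped in both vectors. TPM were computed from counts and exon lengths and not from CPM scaled by TMM, and the units differ between groups. Mmp14 averaged 220 CPM in EV combo and 205 in EV vehicle, but 132 and 109 TPM. The part of this in the differences between the sums was not tested. These sums and ratios are descriptions with no test, since the members were chosen with results known.

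**Figure D3:**
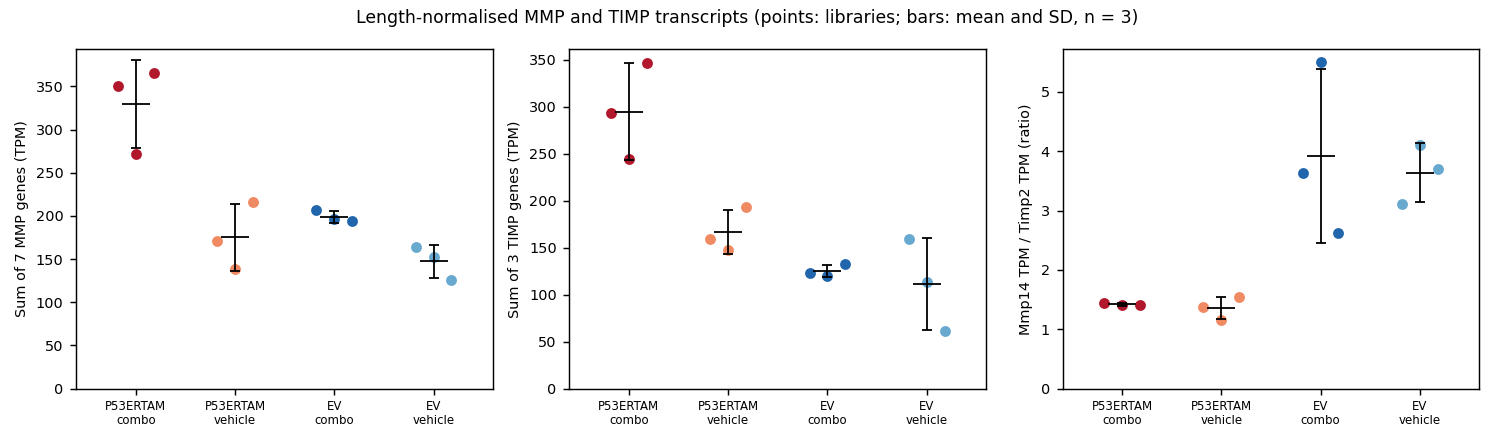
Summed TPM of the 7 MMP genes (left), summed TPM of the 3 TIMP genes (middle) and the ratio of Mmp14 to Timp2 TPM (right), by group, on axes from 0; points are libraries and bars the mean and SD (n = 3). The Mmp14 to Timp2 ratio is at most 1.54 in p53ERTAM tumors and at least 2.62 in EV tumors. The sums are in TPM and not in CPM scaled by TMM.

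Of the family's other 17 genes, 9 passed the filter on low counts (Mmp7, Mmp8, Mmp10, Mmp12, Mmp15, Mmp17, Mmp23, Mmp25 and Mmp28). Under combo 3 of the 9 (33.3%) were higher with p53ERTAM than with EV and none was lower, against 22.1% and 22.0% of all genes. Mmp12 (macrophage elastase) was at 57.0, 35.3 and 51.9 CPM in p53ERTAM combo tumors and 7.93, 1.66 and 2.16 CPM in EV combo tumors, a log2 difference of 3.61 (SE 0.864, edgeR adjusted p = 0.00586). Its vehicle tumors had 2.43, 16.1 and 12.1 CPM with p53ERTAM and 1.87, 9.25 and 0.937 CPM with EV, which overlapped. Mmp25 (MT6-MMP, known from leukocytes) was higher by 1.80 (SE 0.406, adjusted p = 0.00323), and its interaction was 1.65 (adjusted p = 0.0354), which still passed without EV vehicle replicate 1, EV combo replicate 2 or p53ERTAM vehicle replicate 3 but was lost when any 1 of the other 9 libraries was left out (adjusted p = 0.0526 to 0.0917). Mmp10 (stromelysin-2) was higher by 3.10 (SE 1.02, adjusted p = 0.0254) from at most 46 counts a library, lost without EV combo replicate 1 (0.0523) or 3 (0.0781) or p53ERTAM combo replicate 1 (0.0627) or 3 (0.0603).

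Mmp15 (MT2-MMP, a membrane-anchored relative of Mmp14) moved the other way. It had 128, 139 and 101 CPM in p53ERTAM combo tumors, 107, 116 and 115 in p53ERTAM vehicle, 102, 124 and 128 in EV combo and 196, 167 and 491 in EV vehicle. All 3 EV vehicle tumors lay above the other 9, replicate 3 the furthest. It was lower with combo in EV tumors at a log2 difference of -1.27 (SE 0.320, adjusted p = 0.00837 by edgeR), and lower in p53ERTAM than in EV tumors under vehicle at -1.34 (SE 0.321, adjusted p = 0.00698). Without EV vehicle replicate 3 these were -0.59 (adjusted p = 0.00751) and -0.66 (0.00399). No other of the 9 passed with combo in EV tumors, and none passed with combo in p53ERTAM tumors. The 1 lower call is 11.1% of the 9, against 21.1% of all genes, and in p53ERTAM tumors 3.30% of all genes were higher and 2.98% lower. The interaction was called higher for Mmp15 and Mmp25, 22.2% of the 9, against 18.8% of all genes. Neither interaction call passed in every refit without 1 library. Over both treatments 4 (Mmp8, Mmp10, Mmp12 and Mmp25) were higher and 1 (Mmp15) lower. These are 44.4% and 11.1% of the 9, against 20.6% and 20.4% of all genes. The calls of Mmp8 and Mmp15 were lost in 6 and 7 of 12 refits without 1 library (adjusted p up to 0.0959 and 0.0891).

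**Figure D4:**
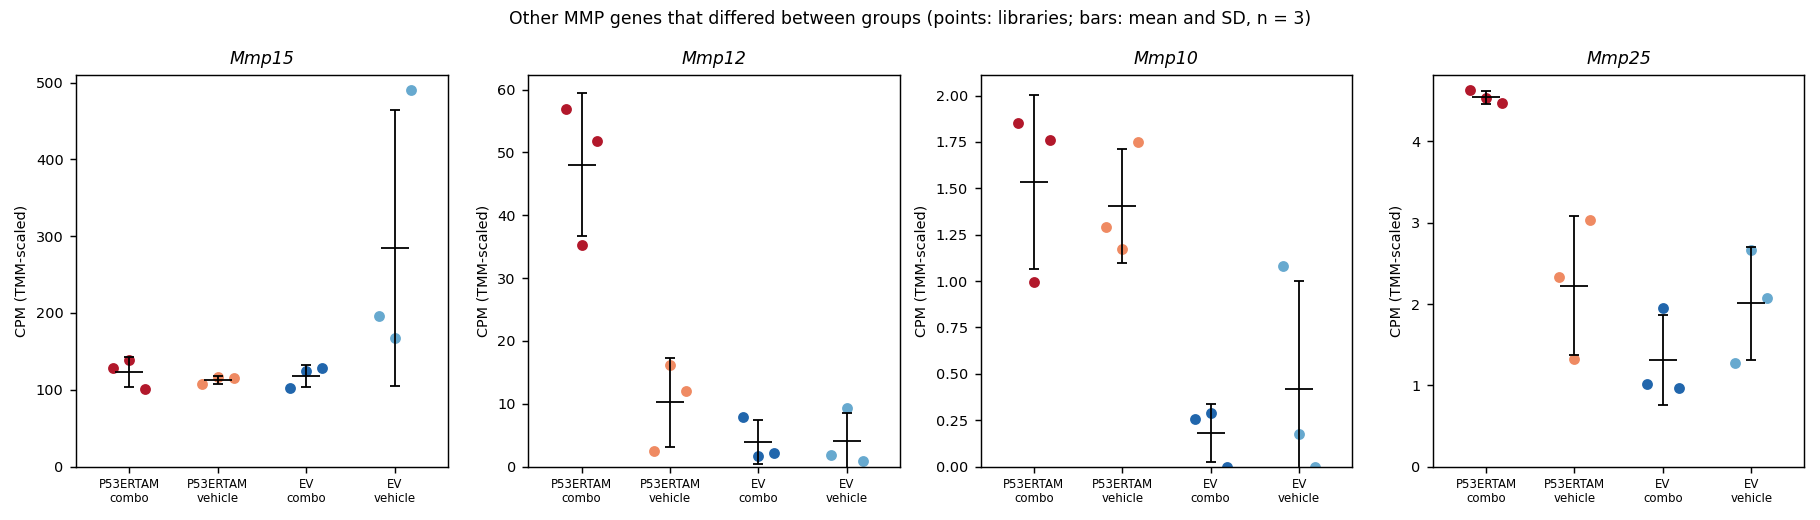
CPM scaled by TMM of Mmp15, Mmp12, Mmp10 and Mmp25 by group, on axes from 0; points are libraries and bars the mean and SD (n = 3). Mmp15 is highest in EV vehicle tumors, with 491 CPM in replicate 3, and Mmp12 is at 35.3 to 57.0 CPM in p53ERTAM combo tumors.

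Genes that activate MMP precursors or restrain them, and matrix-bound partners, formed a list of 24, of which 21 passed the filter. With combo in p53ERTAM tumors 4 were higher and none lower: Ctsb (cathepsin B) by 0.80 (adjusted p = 0.0313), Ctsk (cathepsin K, a collagen-cutting lysosomal protease) by 1.30 (0.0312), Plat (tissue plasminogen activator) by 0.98 (0.0335) and Serpinf1 by 1.01 (0.0455). All 4 calls were lost when replicate 1 or 3 of p53ERTAM combo, or replicate 1 or 2 of p53ERTAM vehicle, was left out (adjusted p = 0.0854 to 0.206), that of Ctsb also without p53ERTAM combo replicate 2 (0.0502), and that of Serpinf1 also without EV combo replicate 1 (0.0555) or 2 (0.0610). With combo in EV tumors 6 were higher and 2 lower, among them Lrp1, the endocytic receptor that clears MMPs, by 0.82 (adjusted p = 0.00428), Ctsk by 1.23 (0.00829), and Furin, which cuts the Mmp14 propeptide, at -0.39 (0.0125). Ctsk was lost there without EV combo replicate 3 (0.0512) and Furin without EV vehicle replicate 1 (0.0519). Between vectors under combo 14 were higher and 2 lower in p53ERTAM tumors, Furin by 0.94 (3.23e-05), Ctsb by 1.38 (0.000134) and Pcolce, an enhancer of procollagen processing, by 1.89 (0.000161), with Pcsk5 at -1.45 (0.00186) and A2m at -2.62 (0.0195), the last lost without EV combo replicate 1 (0.0940) or p53ERTAM combo replicate 2 (0.0596) or 3 (0.0630). Under vehicle 8 were higher and none lower, led by Pcolce at 2.38 (9.09e-05). With combo in p53ERTAM tumors the 4 higher calls of the 21 stand beside 3.30% of all genes higher and 2.98% lower. Higher calls were 28.6% of the 21 with combo in EV tumors, against 18.8% of all genes. Between vectors they were 66.7% under combo and 38.1% under vehicle, against 22.1% and 17.9% of all genes. Lower calls were 9.52% of the 21 with combo in EV tumors, against 21.1% of all genes. Between vectors under combo they were 9.52%, against 22.0%, and under vehicle none was lower, against 19.8%. In p53ERTAM tumors 0 of the 4 combo calls passed in every refit without 1 library, and in EV tumors 1 of 8. Between vectors 11 of 16 did so under combo and 3 of 8 under vehicle.

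In bulk tumors fewer cells of a type and less RNA per cell cannot be told apart, and marker genes of several cell types moved with the same contrasts. The summed level of 10 fibroblast markers was 1483 to 2207 CPM in p53ERTAM combo tumors, 1551 to 3875 in p53ERTAM vehicle, 1146 to 2096 in EV combo and 581 to 642 in EV vehicle, an order of EV vehicle against the rest like that of Mmp2 and Mmp11. With combo in EV tumors 7 of 10 fibroblast markers were higher and none lower, and with combo in p53ERTAM tumors none passed. Between vectors 7 were higher under vehicle and 2 under combo. The 10 macrophage markers summed to 1519 to 2185 CPM in p53ERTAM combo and 782 to 867 in p53ERTAM vehicle. In EV tumors they summed to 500 to 702 CPM under combo and 612 to 909 under vehicle. The p53ERTAM combo tumors thus stood above the rest, as for Mmp3, Mmp13, Mmp14, Mmp19, Timp2, Timp3, Mmp12 and Mmp25. The share of all genes with this order, or with EV vehicle lowest, was not computed. With combo in p53ERTAM tumors 7 of 10 macrophage markers were higher, and 8 of 10 stood higher with p53ERTAM than with EV under combo. Between vectors under vehicle the macrophage sums overlapped, with 1 marker higher and 1 lower, while Mmp13, Mmp19 and Timp2 were called higher with p53ERTAM there too. The 8 endothelial markers summed to 148 to 229, 124 to 189, 91.6 to 165 and 42.6 to 85.2 CPM in the 4 groups, p53ERTAM combo first and EV vehicle last. Of 7 pericyte markers, 3 were higher and 1 lower with p53ERTAM than with EV under combo, and 5 were higher and none lower under vehicle. Of the 7 neutrophil markers that passed the filter, 2 were higher and 1 lower under combo, and none higher and 2 lower under vehicle, Ly6g and Elane being at 0 in EV combo tumors and Elane and Camp in p53ERTAM vehicle. No other defining marker was at 0 throughout a group. Of 10 epithelial markers 6 were lower with combo in EV tumors and 7 were lower with p53ERTAM than with EV under vehicle; of 8 basal markers 4 were lower with combo in p53ERTAM tumors, 5 were lower and none higher between vectors under combo (median log2 difference -2.42), and 5 were lower and 1 higher under vehicle (-1.60); and of 8 T cell markers 6 were higher with p53ERTAM than with EV under combo. Among all genes 18.8% were called higher and 21.1% lower with combo in EV tumors, and 3.30% and 2.98% in p53ERTAM tumors. Between vectors these shares were 22.1% and 22.0% under combo and 17.9% and 19.8% under vehicle. Fibroblast markers (20.0% higher) and neutrophil markers (28.6% higher, 14.3% lower) between vectors under combo were near them. The part of these cell types in the family's differences was not tested.

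**Figure D5:**
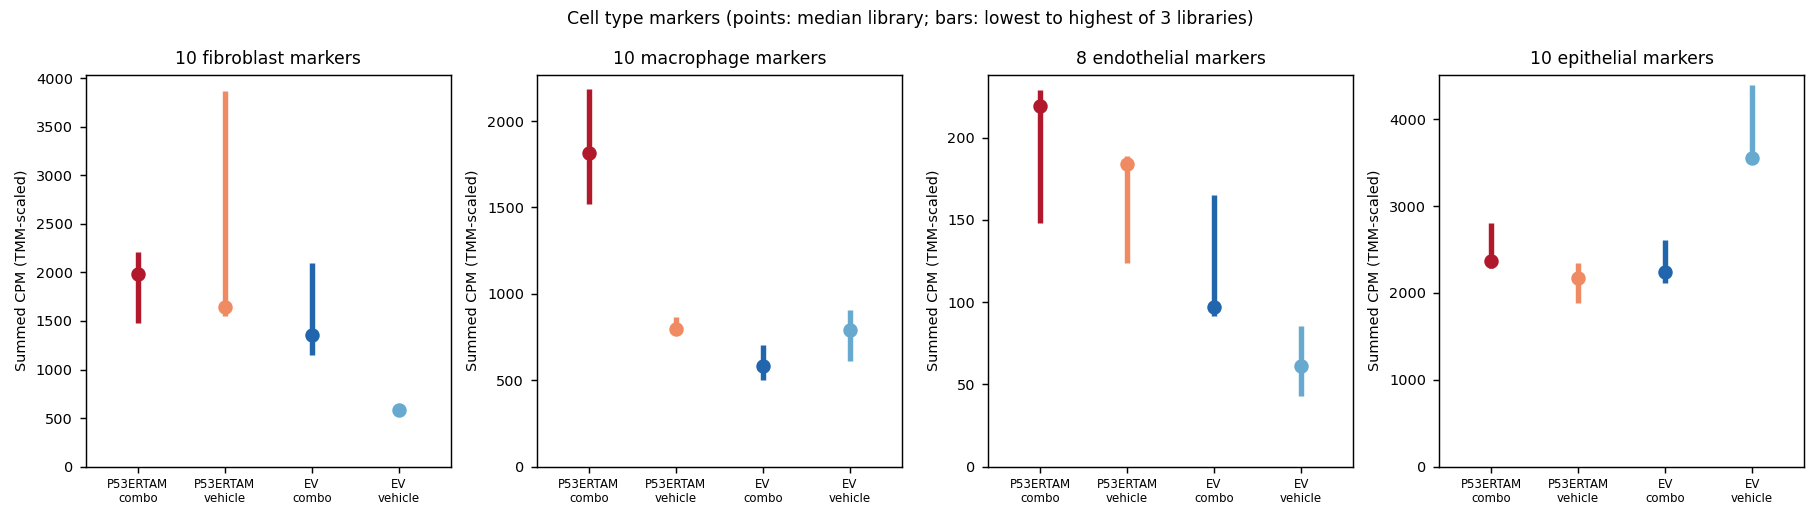
Summed CPM of fibroblast, macrophage, endothelial and epithelial markers by group, on axes from 0; points are the median library and bars run from the lowest to the highest of 3 libraries. Fibroblast markers are lowest in EV vehicle tumors (581 to 642 CPM), and macrophage markers are highest in p53ERTAM combo tumors (1519 to 2185 CPM).

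The genes whose log level over the 12 libraries was most like that of Mmp2, among 12795 protein-coding genes of at least 1 CPM on average, were Fbn1 (over 12 libraries, Pearson r = 0.972, Spearman rho = 0.958), Ms4a14 (0.971, 0.972), Col6a1 (0.943, 0.867), Adamts12 (0.934, 0.846) and Dync1h1 (0.930, 0.832). They are given as a description, since all share the libraries, their depth and the difference between groups. Fbn1, which encodes the microfibril protein fibrillin-1, averaged 206 ± 41.3, 132 ± 15.7, 169 ± 22.2 and 67.3 ± 8.29 CPM (SD, n = 3) in p53ERTAM combo, p53ERTAM vehicle, EV combo and EV vehicle tumors. No other member was near the top: Mmp11 ranked 165 (r = 0.806), Mmp13 245 (0.782) and Timp1 505 (0.718), while Mmp9 ranked 4889 (0.104).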

How the data were processed

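The data are bulk RNA-seq counts of 12 tumors. Per the labels' protocols, a Direct-zol kit gave the RNA and a stranded Illumina kit with ribosomal depletion the libraries. Per the submitters' processing notes the build was GRCm38.p5 and the tools FastQC, fastp, STAR and featureCounts, with no versions; the annotation release and strand setting are not given in the sources used here. The authors deposited raw counts per gene with no normalization, per the file headers, for 52636 gene identifiers with exon lengths. GENCODE M21 on GRCm38 gave symbols to 52489 identifiers and positions to the 10 members.

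Groups were taken from the sample titles. At least 1 count was found for 31622 genes, and filterByExpr kept 17970, which were tested by the edgeR 4.0.16 quasi-likelihood F-test (robust, TMM factors) in 1 joint model of the 4 groups (8 residual degrees of freedom), adjusted by Benjamini-Hochberg over all genes tested, with a threshold of 0.05; the SE is the log2 difference divided by the square root of F. The biological coefficient of variation was 0.221. TPM were computed from the counts and exon lengths. Totals of 13484873 to 24424964 counts limit precision at low counts. The test was run on simulated data first. No 2 libraries were duplicates; the highest correlation of log counts was 0.9868.

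The members and gene lists were chosen with earlier results of these data known. Named are all members; from each other list, up to 3 genes of smallest p in each direction among those called, and all where 5 or fewer were called; the 5 protein-coding genes most like Mmp2; and Trp53, Esr1 and Cdkn1a. Examples given are a part of these. Alternatives were no filter, DESeq2 size factors, DESeq2 1.42.0, voom with quality weights (limma 3.58.1), protein-coding genes only, a replicate block, each library left out, the groups compared alone and, chosen after seeing the data, a fit without the EV combo libraries. Tests ran in R 4.3.3; promoter windows from RefSeq tables on GRCm38.p6 were searched in Python 3.11.15.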

Additional observations from a re-analysis of the deposited data

Results flagged for a closer look

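The combo effect on Mmp2 in p53ERTAM tumors minus that in EV tumors was -0.80 on the log2 scale (SE 0.277, adjusted p = 0.0379 by edgeR). It was singled out because the effect of the same treatment differed between the vectors by a test of the difference itself. The call was lost in 8 of 18 alternatives, with adjusted p up to 0.122. This value is the difference between the combo effects by which the family was chosen, so its test is not separate from that choice. Mmp2 was higher in all 3 combo tumors than in all 3 vehicle tumors of each vector. The difference is therefore one of size on the log2 scale, from a lower mean in EV vehicle tumors. The group means were 37.2 ± 9.02 CPM in p53ERTAM combo, 19.4 ± 2.40 in p53ERTAM vehicle, 27.7 ± 4.52 in EV combo and 8.31 ± 1.22 in EV vehicle (SD, n = 3). Fibroblast markers, 5 of 10 of which were lower in the same interaction and none higher, moved with it, and their part was not tested. Interactions were common in these data (18.8% of genes higher, 17.2% lower).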

How the results depend on the processing

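The direction of every called member was kept in every alternative. Members called with combo in p53ERTAM tumors were 2 of 9, but 6 by voom and 6 in a fit of the groups compared alone, and 0 to 4 with 1 library left out; with EV vehicle replicate 3 left out they were 4. With combo in EV tumors they were 2, but 1 without the filter, by voom, with the replicate block and in the groups alone, and 0 to 2 with 1 library left out. For the interaction the member count was 1, but 2 by DESeq2, 3 by voom and 2 among protein-coding genes, and 0 to 3 with 1 library left out (3 without EV vehicle replicate 3; 0 without replicate 1 or 2 of EV vehicle, replicate 3 of EV combo or p53ERTAM vehicle replicate 2). Genes called with combo in p53ERTAM tumors, 593 higher and 536 lower, were 1130 and 1204 by DESeq2, 1876 and 1893 by voom, and 1087 and 805 in the groups alone; leaving out 1 library gave 63 to 1014 and 14 to 1194, the counts being at most 324 and 193 without any 1 p53ERTAM combo library or p53ERTAM vehicle replicate 1 or 2, 945 and 806 without EV vehicle replicate 3, and 1014 and 1194 without p53ERTAM vehicle replicate 3, while 346 were lower without EV combo replicate 1. Under vehicle 3217 genes were higher in p53ERTAM tumors, but 2089 in the groups alone. Among protein-coding genes alone, 2466 were lower with combo in EV tumors, against 3783, and 1959 were higher in the interaction, against 3377. The causes were not tested, save that fewer genes or samples entered the last fits. Scaling on protein-coding genes moved the median of all genes by 0.13 for combo in EV tumors, -0.11 between vectors under combo and -0.18 for the interaction, log2. A fit of the other 9 libraries, without EV combo, was run for combo in p53ERTAM tumors and between vectors under vehicle. In it 213 genes were lower with combo in p53ERTAM tumors, against 536, and Timp2 passed there; no other call of a member changed in those comparisons. Same-numbered libraries did not deviate together (18 pairs, correlations -0.15 to 0.21, 2 above 0.1, 2 of 12 libraries closest to their own number). No pairing by number was thus seen, which cannot show whether the numbers were paired by design. Under the replicate block 1 member was called with combo in EV tumors. Mmp13 had 18 to 91 counts a library in EV tumors, and whether counting error or the spread between tumors limits it was not tested.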

Other observations

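Of 19 matrix genes that passed the filter, among them the collagens and basement membrane proteins that MMPs cut, none passed with combo in p53ERTAM tumors, and 11 were higher and none lower with combo in EV tumors, led by Col4a2 (log2 difference 1.72, edgeR adjusted p = 0.00154), Col3a1 (1.79, 0.00264) and Hspg2 (0.88, 0.00324). Under combo 7 stood higher with p53ERTAM than with EV, under vehicle 14 and over both 13, with Bgn (2.08, 0.000303), Sparc (1.12, 0.00042) and Col1a1 (2.38, 0.000835) leading under vehicle. With combo in p53ERTAM tumors, where none of the 19 passed, 3.30% of all genes were called higher and 2.98% lower. The higher calls with combo in EV tumors are 57.9% of the 19, against 18.8% of all genes. Those between vectors are 36.8% under combo, 73.7% under vehicle and 68.4% over both treatments, against 22.1%, 17.9% and 20.6% of all genes. In the interaction 7 were lower and none higher, Eln (-3.30, 0.00528), Col4a2 (-1.68, 0.0114) and Col1a1 (-2.00, 0.0132) among them. They are 36.8% of the 19, against 17.2% of all genes called lower and 18.8% called higher in the interaction. Of these 7 calls, 5 passed in every refit without 1 library.

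Of 18 genes of the related ADAM and ADAMTS proteases, 1 passed with combo in p53ERTAM tumors, Adamts10 at -0.71 (edgeR adjusted p = 0.0225). It is 5.56% of the 18, against 2.98% of all genes called lower there and 3.30% called higher. The call was lost when replicate 1 (0.104) or 3 (0.0866) of p53ERTAM combo, or replicate 1 (0.0848) or 2 (0.0810) of p53ERTAM vehicle, was left out. With combo in EV tumors 10 were higher and 2 lower: Adamts10 by 1.32 (0.00013), Adamts12 by 1.68 (0.000272) and Adamts2, which processes procollagen, by 1.69 (0.000908), with Adam9 at -1.01 (0.00132). Adam10, at -0.52 (0.0260), no longer passed with any 1 EV combo library left out (0.0507 to 0.0757) or with replicate 2 (0.106) or 3 (0.0601) of EV vehicle left out. Between vectors 6 were higher and 4 lower under combo, 9 higher and 1 lower under vehicle. Those under combo are 33.3% and 22.2%, against 22.1% and 22.0% of all genes, so the lower share is at the background. Higher calls were thus 55.6% and lower calls 11.1% of the ADAM and ADAMTS genes with combo in EV tumors, against 18.8% and 21.1% of all genes, and the 9 of 18 higher between vectors under vehicle stand beside 17.9% of all genes. Of 22 genes known to regulate MMP transcription, none passed with combo in p53ERTAM tumors, and 5 were lower with combo in EV tumors, Tgfb1 (-0.64, 0.000621), Ets2 (-0.72, 0.000735), Etv5 (-0.41, 0.0143), Jund (-0.86, 0.0172) and Rela (-0.36, 0.0241). Etv5 was lost there without EV combo replicate 3 (0.0630), Jund without replicate 1 (0.0593) or 3 (0.0552) of EV combo or replicate 3 of EV vehicle (0.0869), and Rela without any 1 of 6 libraries (0.0502 to 0.101). Under combo 10 of these regulators were higher in p53ERTAM tumors and 2 lower, with Etv5 (1.20, 1.18e-05), Tgfb1 (0.96, 2.14e-05) and Ets1 (1.63, 0.00103) leading, and under vehicle 4 were higher and 1 lower. That none of the 22 passed with combo in p53ERTAM tumors stands beside 3.30% of all genes higher and 2.98% lower. The 22.7% lower with combo in EV tumors and the 18.2% higher under vehicle are near the 21.1% and 17.9% of all genes. Between vectors under combo 45.5% were higher and 9.09% lower, against 22.1% and 22.0% of all genes. Of those 12 calls under combo, 7 passed in every refit without 1 library.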
